A study of Mus with 21 samples.

Results

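The axon guidance ligands and receptors described here are the semaphorins of classes 3 to 7, the plexins, the ephrins and their Eph receptors, the Slits, the Robo receptors and the Unc5 netrin receptors. They were chosen by gene symbol alone, as every row of the deposited count table with a name of these families, and no measured value entered the choice. There were 62 such genes among the 55335 rows of the table: 20 semaphorins, 9 plexins, 8 ephrins, 14 Eph receptors, 3 Slits, 4 Robo receptors and 4 Unc5 receptors. All 62 passed the filter on low counts that 30552 genes passed, so each member was tested.

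The study asked whether losing one copy of Wapl offsets the loss of one copy of Nipbl in the mouse. Nipbl is the protein that loads the cohesin ring onto chromatin and Wapl is the one that releases it. Reads on genes were counted in poly(A) RNA from whole brains of female embryos at E17.5, in 5 wild type (WT), 3 Nipbl+/-, 7 WaplΔ/+ and 6 double heterozygous (WaplΔ/+; Nipbl+/-) embryos, one library each. The labels write these as Wapl +/+; Nipbl +/+ for WT and with one delta allele and one + allele at the mutated gene or genes otherwise. At Wapl they put the deletion second in WaplΔ/+ replicates 3 to 7 and double heterozygote replicates 5 and 6 and first in the other carriers, and what that order stands for is not given. The WaplΔ allele lacks the promoter and the first exons and was made with E2a-Cre, and the Nipbl- allele arose from a floxed allele through Stra8-icre in the germ line of the sire. Whether an embryo carried the Stra8-icre transgene is not given in the labels, and a further Nipbl+/- library that the study set aside was not analysed here. Every mutant embryo kept one intact copy of the mutated gene, so the comparisons concern a reduced dose in all cells and not the loss of either protein. Nothing in the labels ties embryos to litters, so litter could not be modelled. The p-values measure the spread between these embryos taken as independent, and embryos of one litter may not be.

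Growing axons are steered by cues that their growth cones read through surface receptors. Semaphorins signal through plexins, with neuropilins as co-receptors for most class 3 members, Slits repel axons through Robo receptors at the midline, and Unc5 receptors turn the netrin signal into repulsion. Ephrins and Eph receptors are both held in the cell membrane and signal in both directions at contacts between cells, and they order topographic maps such as the one from retina to midbrain.

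Library totals ran from 25682566 to 35818767 counts, and values are given as normalized counts, that is counts scaled to a common library size by edgeR's TMM method. Levels are compared between groups for one gene and never between genes, since no transcript lengths were at hand. Nipbl stood at 2402, 2147, 2019, 2041 and 2221 normalized counts in the WT libraries and at 1136, 1104 and 1287 in the Nipbl+/- libraries, and at 1135 to 1244 in the double heterozygotes. Wapl ranged over 1389 to 1606 in WT, over 590 to 755 in WaplΔ/+ and over 704 to 774 in double heterozygous libraries, so each library matched its label. Counts of mt-Nd3 split the libraries into a low set of 12 (0 to 6 counts) and a high set of 9 (52 to 106 counts), and all 3 Nipbl+/- libraries were in the low set. Among carriers of the Wapl deletion, the libraries whose labels put it second were exactly those of the high mt-Nd3 set, so the written order and the mt-Nd3 set cannot be told apart there, while WT replicates 4 and 5 were in the high set without a deletion. Double heterozygote replicate 5 and, for some genes, WaplΔ/+ replicate 2 stood apart from their groups, and values without them stand beside the counts of calls against WT and the medians of the called members in those groups.

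In Nipbl+/- brains 33 of the 62 members changed against WT, 17 higher and 16 lower (edgeR quasi-likelihood test, Benjamini-Hochberg adjusted p below 0.10 over all genes tested). In one fit of all 4 groups 14 of these 33 calls were kept, 4 higher and 10 lower, and with only libraries of the low mt-Nd3 set 23 were kept, 9 higher and 14 lower. The single fit lost, of the lower members, Plxna2, Plxna4, Plxnc1, Sema3d, Sema7a and Unc5d, and of the higher members Efnb1, Ephb4, Plxna3, Plxnb1, Plxnb2, Sema3f, Sema4a, Sema4c, Sema4g, Sema5b, Sema6c, Slit1 and Unc5b. The low set lost Sema7a and Unc5d among the lower and Efna2, Efna4, Efnb1, Plxna3, Sema4a, Sema4g, Slit1 and Unc5b among the higher members. Over all genes 11.2% were called, 4.25% as higher and 6.96% as lower, and the share was 20.5% among the 14542 genes whose normalized counts averaged 100 or more. The called members were split by family and within families: 7 semaphorins fell and 6 rose, 3 plexins fell and 3 rose, 2 Eph receptors fell and 2 rose, 1 Slit and 1 Robo receptor went each way, 2 Unc5 receptors fell and 1 rose, and 3 ephrins rose with none lower. The changes were small, with log2 fold changes from -0.60 for Sema3c to 0.55 for Robo3, a median of -0.03 over the members and of -0.01 over all genes tested. For 28 members the Nipbl+/- and WT libraries did not overlap at all, 15 with every Nipbl+/- value above and 13 with every value below, against 13.4% of all genes. A whole brain holds many cell types, and fewer cells of a type and less RNA per cell cannot be told apart in these counts.

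**Figure D1:**
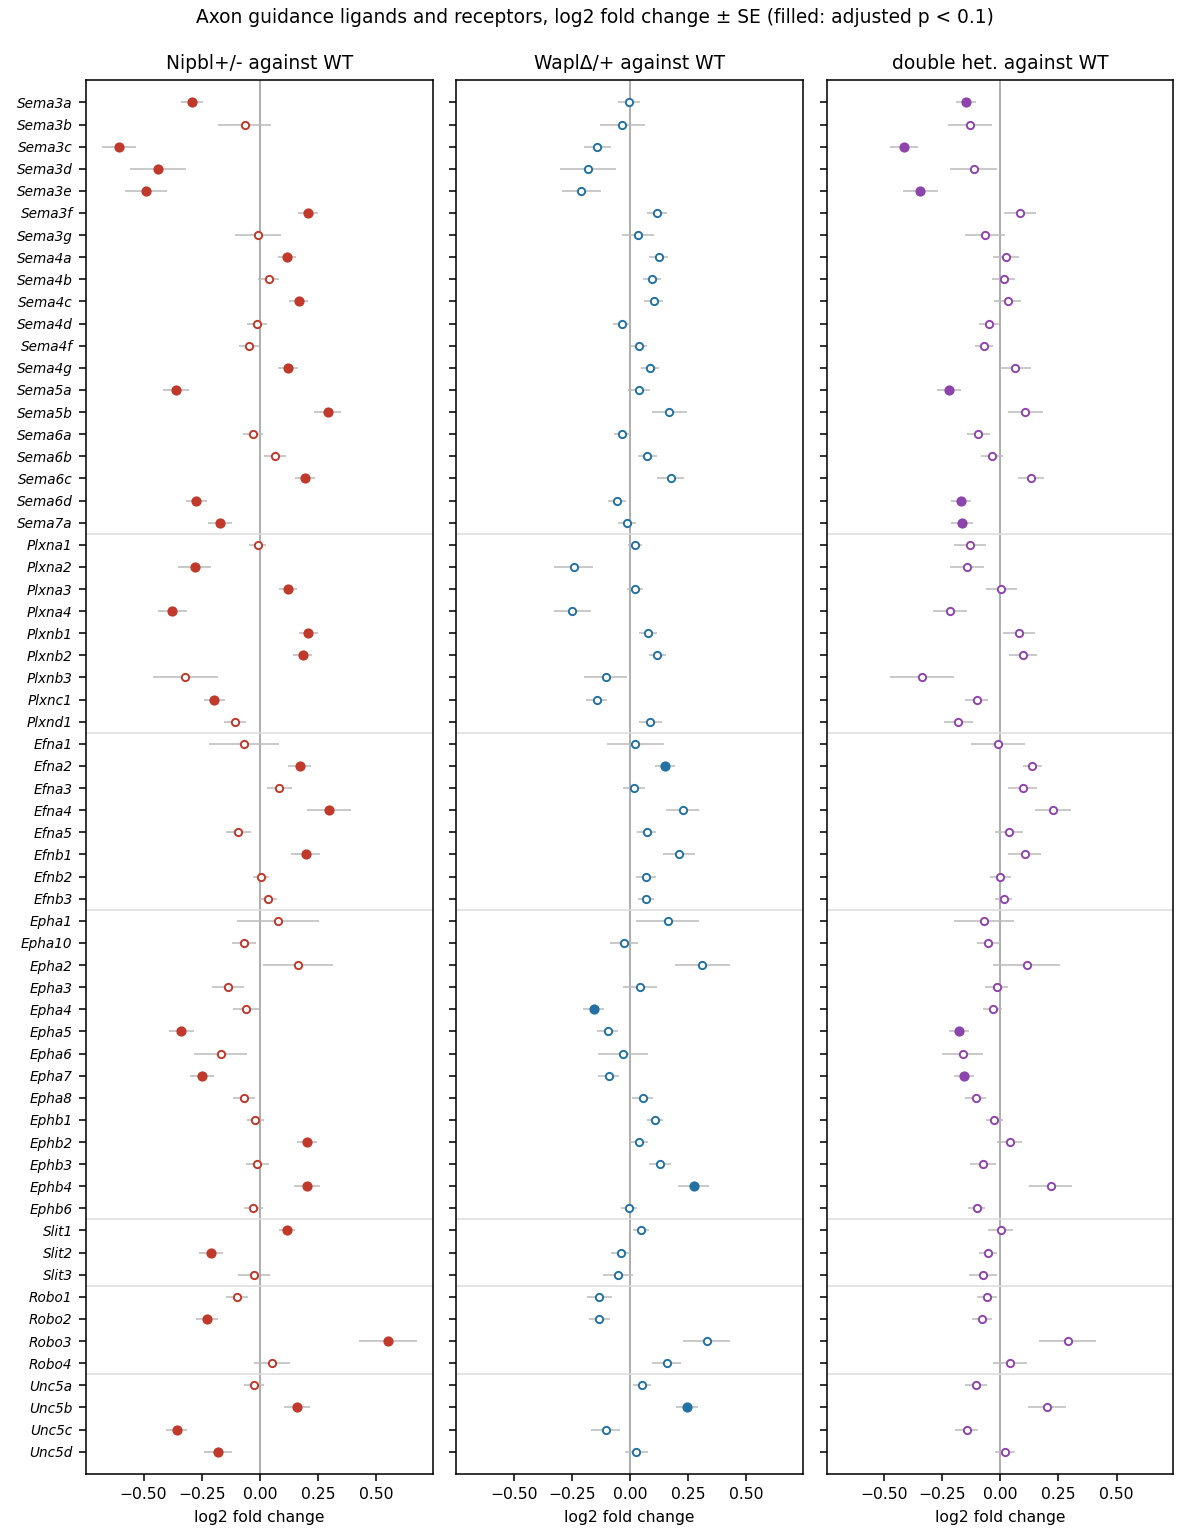
Log2 fold change against WT (x axis) of each of the 62 members (rows, by family) in Nipbl+/-, WaplΔ/+ and double heterozygous brains. Points are edgeR estimates, bars the standard error, and filled points passed an adjusted p below 0.10, which 33, 4 and 8 members did.

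Markers of several cell types moved in the same brains. In Nipbl+/- libraries 4 of 5 astrocyte markers fell (Aldh1l1, Aqp4, S100b and Slc1a3), with a summed level of 8671 to 11004 normalized counts against 12052 to 13046 in WT. Of the oligodendrocyte lineage 3 of 5 markers fell (sum 4801 to 5904 against 6276 to 6910.3), and of microglia and macrophages 4 of 5 fell (sum 1774 to 2103 against 2307 to 2633). Among radial glia and progenitor markers Eomes, Nes and Sox2 rose and Fabp7 fell. Of 7 general neuronal markers 1 fell, Snap25, with sums of 175828 to 184548 against 184245 to 194208, and 2 of 8 midbrain and hindbrain markers rose, En1 and En2. Single markers were called for endothelium (Cdh5 higher), meninges (Col3a1 higher) and cerebellum (Cbln1 lower), and none for blood, choroid plexus or pituitary. No marker on these lists was at 0 in every library, and the part of these shifts in the members' changes was not tested.

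Among the secreted class 3 semaphorins, which repel or attract axons through neuropilin and plexin complexes, 4 fell in Nipbl+/- brains. Sema3c, a cue for callosal and other cortical axons, lies at chr5:17574816-17730268 (GRCm38.p6) and stood at 1811, 1756, 1746, 1638 and 1723 normalized counts in WT and at 932, 1294 and 1209 in Nipbl+/-. All Nipbl+/- values lay below all WT values, with a mean of 66% of WT and a log2 fold change of -0.60 ± 0.074 (SE, adjusted p = 0.000105). Sema3e, the ligand of Plxnd1 in vessels and axons, lies at chr5:14025276-14256689 and stood at 405, 414, 348, 320.1 and 374 in WT and at 241, 282 and 277 in Nipbl+/-. The groups were again apart, with 71.6% of the WT mean and a log2 fold change of -0.49 ± 0.09 (SE, adjusted p = 0.00241). Sema3a, the classic collapsing factor for sensory growth cones, lies at chr5:13124822-13603485 and was at 1210.3, 1163, 1089, 1090.4 and 1145 in WT and at 914, 920.4 and 969.6 in Nipbl+/-. Its 82% of the WT mean gave a log2 fold change of -0.29 ± 0.047 (SE, adjusted p = 0.000951), with no overlap. The fourth, Sema3d, had 161 ± 14 normalized counts in WT and 119 ± 21.8 in Nipbl+/- (SD), a log2 fold change of -0.44 ± 0.12 (SE, adjusted p = 0.0318). All 4 genes lie on one stretch of chromosome 5, between positions 12383161 and 17730268.

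Membrane-bound and matrix ligands fell as well. Sema5a, a transmembrane semaphorin with thrombospondin repeats, lies at chr15:32244813-32696341, on the chromosome that carries Nipbl itself (chr15:8289824-8465315). It stood at 1300.0, 1350.3, 1178, 1176 and 1368 normalized counts in WT and at 1003, 945 and 1044 in Nipbl+/-, every mutant value below every WT value, with a log2 fold change of -0.36 ± 0.057 (SE, adjusted p = 0.000771). Sema6d (chr2:124089943-124667789), a transmembrane ligand of class A plexins, was at 3509, 3551, 3465, 3485 and 3698 in WT and at 2714, 2975 and 3142 in Nipbl+/-, also without overlap. Its log2 fold change was -0.27 ± 0.045 (SE, adjusted p = 0.00103). Slit2 (chr5:47981291-48307735), a midline repellent, was at 1531, 1472, 1407, 1396 and 1528 in WT and at 1238, 1202 and 1383 in Nipbl+/-. The highest Nipbl+/- library lay just under the lowest WT library, and the log2 fold change was -0.21 ± 0.05 (SE, adjusted p = 0.0146). Sema7a, the semaphorin with a lipid anchor, fell by less and its groups overlapped, at 2528 ± 114 in WT and 2255 ± 182 in Nipbl+/- (SD), a log2 fold change of -0.17 ± 0.05 (SE, adjusted p = 0.0442).

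Of the receptors, 8 fell. Unc5c (chr3:141465564-141834924), through which netrin repels hindbrain and spinal axons, stood at 1334, 1358, 1214, 1263 and 1265 normalized counts in WT and at 1018, 1021 and 985 in Nipbl+/-. The 3 Nipbl+/- values lay close together and below all WT values, at 78.3% of the WT mean, with a log2 fold change of -0.36 ± 0.046 (SE, adjusted p = 0.000168). Epha5 (chr5:84054761-84417818), a receptor of A ephrins in retinal and forebrain maps, was at 4592, 4402, 4070.2, 4133 and 4253 in WT and at 3087, 3444 and 3699 in Nipbl+/-. It fell without overlap, by 0.34 ± 0.052 on the log2 scale (SE, adjusted p = 0.000644). Epha7 (chr4:28813066-28967503), another A class receptor, was at 2564, 2288, 2340.4, 2248 and 2234 in WT and at 1816, 2009 and 2097 in Nipbl+/-, a log2 fold change of -0.25 ± 0.052 (SE, adjusted p = 0.00563) with no shared range. Plxna4 (chr6:32144543-32588192), the plexin that carries Sema3a signals in sensory and sympathetic axons, was at 8017, 8312, 7198, 7773 and 7616 in WT and at 5182, 6367 and 6508 in Nipbl+/-. Nipbl+/- replicate 1 was the lowest of the 3 but all were under the WT range, with a log2 fold change of -0.38 ± 0.062 (SE, adjusted p = 0.00101). Reads of Plxna4 cannot be told from those of its overlapping antisense gene Plxna4os1, since the strand setting of the counting is not given in the sources used here.

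Robo2 (chr16:73891976-75447443), a Slit receptor and the member with the longest span, was at 8081, 8110.2, 7261, 7167 and 7683 normalized counts in WT and at 6178, 6607 and 6905 in Nipbl+/-. Its Nipbl+/- libraries lay below the WT libraries, at 85.7% of the mean and a log2 fold change of -0.23 ± 0.048 (SE, adjusted p = 0.00563). The other receptors that fell were Plxna2 (-0.28 ± 0.071 SE, adjusted p = 0.0198), Plxnc1, the receptor of Sema7a (-0.20 ± 0.045 SE, adjusted p = 0.0106), and Unc5d (-0.18 ± 0.059 SE, adjusted p = 0.0737). Plxnc1 had no overlap between groups, whereas single libraries of Plxna2 and Unc5d reached into the WT range. Of the 16 calls of lower members, 15 were kept at an adjusted p below 0.05.

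**Figure D2:**
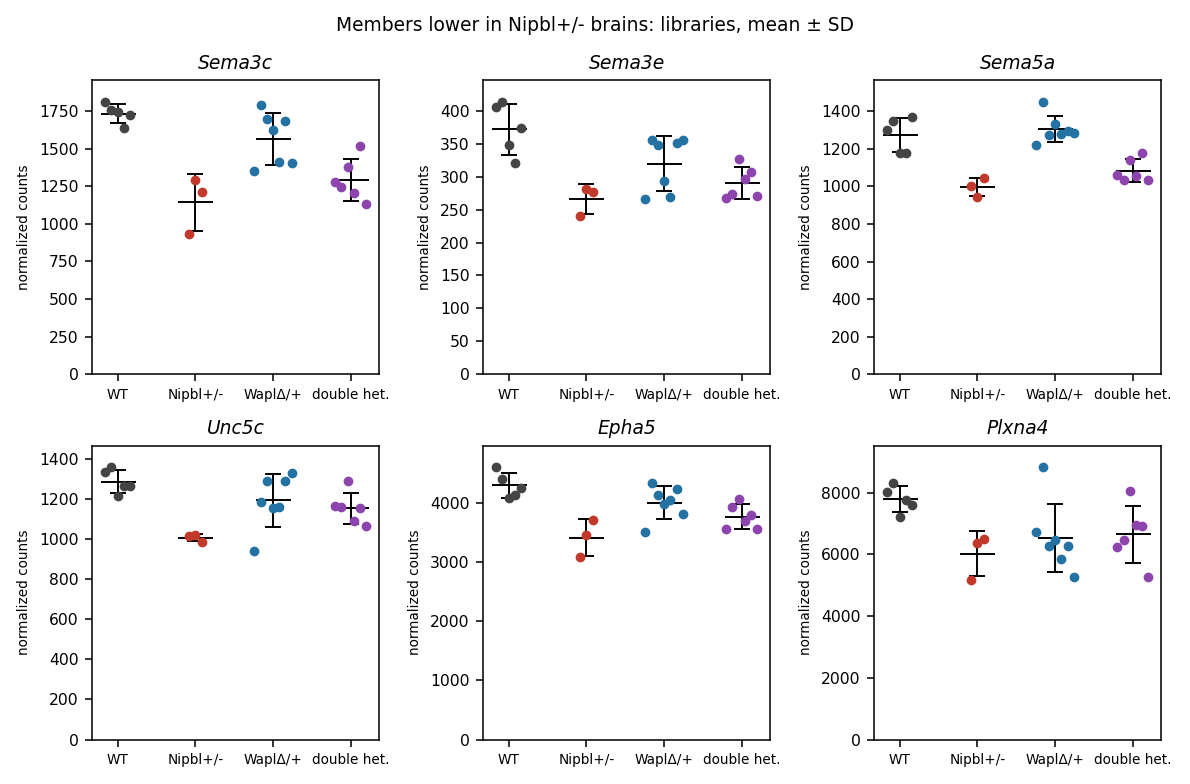
Normalized counts (y axis, from 0) of 6 members that fell in Nipbl+/- brains, by genotype group. Points are libraries, and the long tick and bars are the mean and SD; the 3 Nipbl+/- points lie under all 5 WT points in each panel, from 1294 against 1638 at the nearest for Sema3c.

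The members that rose in Nipbl+/- brains did so by less than the strongest decreases, apart from Robo3. Plxnb1 (chr9:109093849-109119915), the receptor of Sema4d, stood at 8128, 8191, 8745, 8370.3 and 8167 normalized counts in WT and at 9752, 9102 and 10095 in Nipbl+/-, every mutant value above every WT value. The mean was 116% of WT, a log2 fold change of 0.21 ± 0.04 (SE, adjusted p = 0.00328). Plxnb2 (chr15:89155546-89182018), a B class plexin of neural progenitors, was at 8871, 8778, 9354, 8981 and 9283 in WT and at 10702, 9654 and 10616 in Nipbl+/-, a log2 fold change of 0.18 ± 0.04 (SE, adjusted p = 0.00765), again without overlap. Ephb2 (chr4:136647536-136836326), which reads B ephrins in commissural axons, was at 7432, 7313, 7483, 7172 and 7451 in WT and at 8829.6, 7744 and 9005 in Nipbl+/-. Its lowest Nipbl+/- library lay only a little above the WT range, and the log2 fold change was 0.20 ± 0.043 (SE, adjusted p = 0.00622). Robo3 (chr9:37416045-37433436), the Robo family member that lets commissural axons reach the midline, was at 462, 475, 395, 452 and 439 in WT and at 841, 451 and 672 in Nipbl+/-. Nipbl+/- replicate 2 lay inside the WT range and the other 2 far above it, so the groups overlapped, and the log2 fold change was 0.55 ± 0.13 (SE, adjusted p = 0.0103). Without Nipbl+/- replicate 1 the Robo3 change was 0.33 with an adjusted p of 0.105 and did not pass.

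Among the ligands that rose, Sema5b (chr16:35541154-35664261), the paralog of Sema5a, was at 1599, 1496, 1710.2, 1561 and 1532 normalized counts in WT and at 2162, 1731 and 1934 in Nipbl+/-. All 3 were above WT, with a log2 fold change of 0.29 ± 0.058 (SE, adjusted p = 0.00423), while Sema5a fell in the same libraries. Sema3f (chr9:107681499-107710475), which acts through neuropilin 2, was at 2311, 2300.5, 2549.5, 2225 and 2434 in WT and at 2791, 2697 and 2727 in Nipbl+/-, a log2 fold change of 0.21 ± 0.044 (SE, adjusted p = 0.00656) against the fall of Sema3a, Sema3c, Sema3d and Sema3e. The remaining class 3 members, Sema3b (-0.07, adjusted p = 0.825) and Sema3g (-0.01, adjusted p = 0.981), were not called. Efna2 (chr10:80179482-80190010), an ephrin of the visual map, was at 923, 902, 953, 861 and 943 in WT and at 1085, 1029 and 993 in Nipbl+/-. Those groups did not overlap and the log2 fold change was 0.17 ± 0.048 (SE, adjusted p = 0.035), but without Nipbl+/- replicate 1 the adjusted p was 0.19. The other ligands that rose were Efna4 (0.30), Efnb1 (0.20), Sema6c (0.19), Sema4c (0.17), Sema4g (0.12), Sema4a (0.12) and Slit1 (0.12), all as log2 fold changes. The other receptors were Ephb4 (0.20), Unc5b (0.16) and Plxna3 (0.12). At an adjusted p below 0.05, 10 of the 17 higher members were still called.

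**Figure D3:**
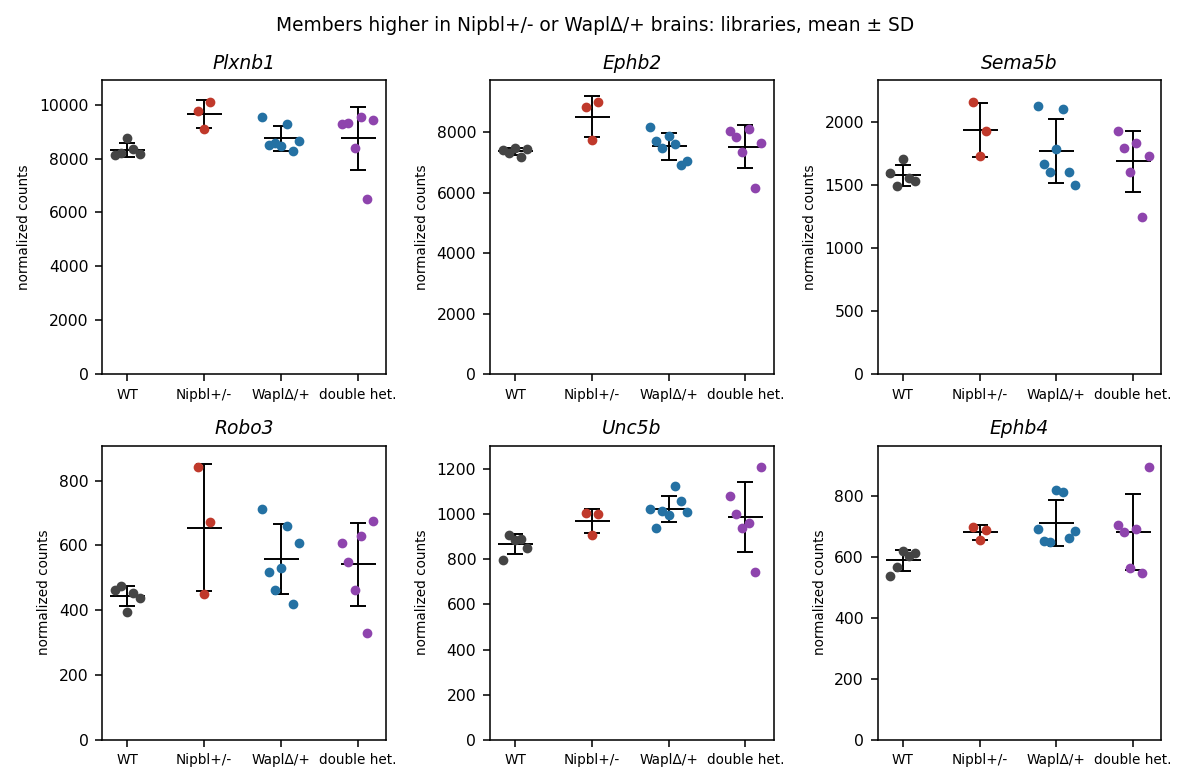
Normalized counts (y axis, from 0) of 6 members that rose in Nipbl+/- or WaplΔ/+ brains, by genotype group. Points are libraries, and the long tick and bars are the mean and SD; 1 double heterozygote, replicate 5, is the lowest point of its group in each panel, at 6514 for Plxnb1 and 329 for Robo3.

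The remaining 29 members did not pass in Nipbl+/- brains. They include Plxna1, Sema4d, Sema6a, Efnb2, Efnb3, Robo1, Slit3 and 10 of the 14 Eph receptors. Some of these estimates were imprecise, as for Plxnb3, the plexin of oligodendrocytes, at 91.9 ± 5.07 normalized counts in WT and 73.9 ± 15.1 in Nipbl+/- (SD) and a log2 fold change of -0.32 ± 0.14 (SE, adjusted p = 0.197). Others were close to no change with a small error, as for Efnb2 (0.01 ± 0.035 SE, adjusted p = 0.958), a ligand of Ephb receptors, and Ephb1 (-0.02 ± 0.035 SE, adjusted p = 0.841). WT means of the uncalled members ran from 51.1 (Epha1) to 15705 (Plxna1), so they include low and high counts.

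The members that fell and those that rose differed in the length of the gene on the chromosome, a property the choice of members did not use. Genomic spans came from RefSeq (GRCm38.p6) and cover exons and introns, and all 62 members had one. The 16 lower members had a median span of 345 kb (23.3 to 1555 kb), the 17 higher members one of 24.4 kb (4.64 to 189 kb) and the 29 uncalled members one of 36.3 kb. Of the 17 members over 200 kb, 11 were called lower and 0 higher, and of the 33 members under 50 kb, 1 was lower and 13 were higher. Genes averaging 100 or more normalized counts showed the same direction, with 47.5% of 875 genes over 200 kb lower and 1.94% higher. Under 50 kb the shares were 6.89% lower and 9.56% higher of 9488 genes. Exceptions among the members were Sema7a, lower at 23.3 kb, and Ephb2, Slit1 and Sema5b, higher at 189, 149 and 123 kb. Across the 62 genes, which are not independent replicates and share the same libraries, the correlation of the log2 fold change with log10 span was r = -0.59 (Spearman rho = -0.61), against r = -0.27 (rho = -0.30) over 13536 genes. The same description over the 62 members gave r = -0.56 in WaplΔ/+ and -0.43 in double heterozygous brains, against -0.27 and -0.26 over the 13536 genes, and these comparisons share the WT libraries with the first. Of the 17 members over 200 kb, 0 were called lower in WaplΔ/+ brains, where 10.5% of the 875 genes of that length were, and 5 in double heterozygous brains, where 21.3% were. The part of span in these changes was not tested.

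**Figure D4:**
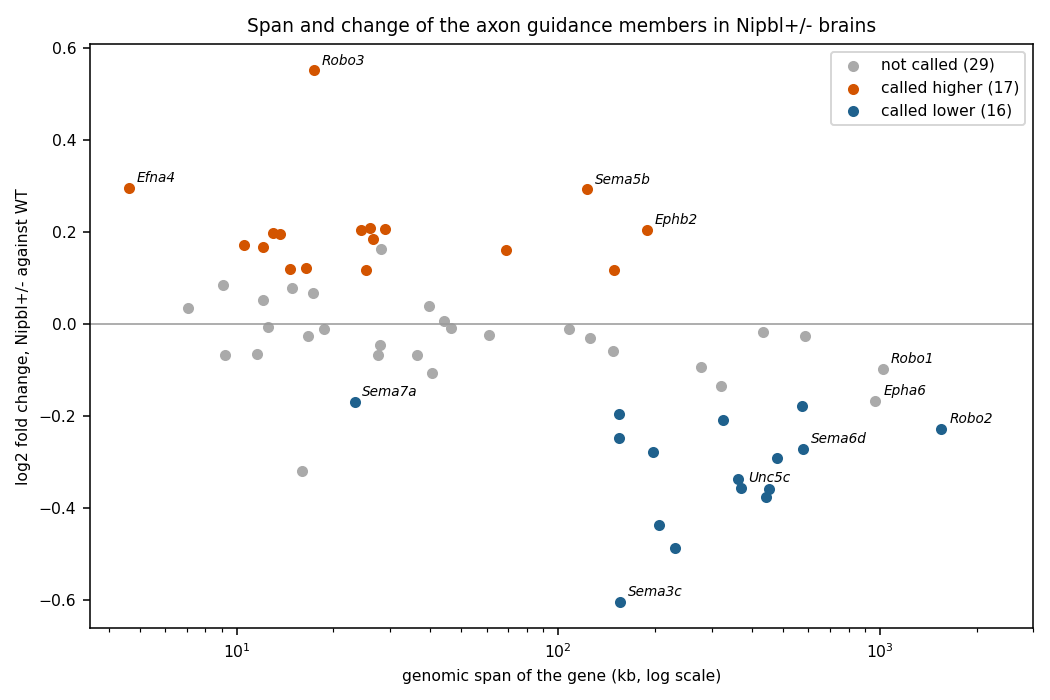
Log2 fold change in Nipbl+/- against WT (y axis) of the 62 members against their genomic span in kb (x axis, log scale). Blue points were called lower (16, median 345 kb), orange points higher (17, median 24.4 kb) and grey points were not called (29).

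In WaplΔ/+ brains 4 of the 62 members changed against WT, 3 higher and 1 lower, where 2.22% of all genes were called (0.769% higher and 1.45% lower) and 3.82% of those averaging 100 or more. Unc5b (chr10:60762594-60831581), a netrin receptor best known from endothelial tip cells, stood at 798, 909, 886, 893 and 849 normalized counts in WT and ranged over 938 to 1125 (median 1013) in WaplΔ/+. Every WaplΔ/+ library was above every WT library, with a log2 fold change of 0.24 ± 0.047 (SE, adjusted p = 0.0381). Ephb4 (chr5:137350109-137374522), a receptor of venous endothelium, was at 538, 565, 619, 603 and 613 in WT and ranged over 647 to 819 (median 683) in WaplΔ/+, also without overlap, for a log2 fold change of 0.27 ± 0.065 (SE, adjusted p = 0.0574). Efna2 ranged over 931 to 1104 (median 1019) against 861 to 953 in WT, with 1 library inside the WT range and a log2 fold change of 0.15 ± 0.043 (SE, adjusted p = 0.0964). Epha4 (chr1:77367182-77515107), which keeps corticospinal axons on their side, was at 4385, 4170.0, 4217, 4046 and 4151 in WT and ranged over 3322 to 4175 (median 3776) in WaplΔ/+. WaplΔ/+ replicate 2 lay within the WT range, and the log2 fold change was -0.16 ± 0.043 (SE, adjusted p = 0.091). Groups did not overlap for 3 members, all with WaplΔ/+ above (Unc5b, Ephb4 and Ephb1), against 1.2% of all genes.

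Endothelial markers stood beside these calls with 1 of 7 higher, Cdh5, and summed levels of 7477 to 8536 normalized counts in WaplΔ/+ against 7666 to 8144 in WT. Of 6 meningeal and fibroblast markers Col1a1, Col1a2 and Col3a1 rose, with sums of 18095 to 32199 against 16398 to 21461, and the part of either list was not tested. The number of members called moved with single libraries: 0 without WT replicate 1 or WT replicate 2, 1 without WT replicate 4, WT replicate 5 or WaplΔ/+ replicate 4, 2 without WaplΔ/+ replicate 1 or 5, 7 without WaplΔ/+ replicate 7 and 16 without WaplΔ/+ replicate 2. The share of all genes called in each of these fits is not given here, so the moves cannot be read as particular to the members. Unc5b lost its call without WT replicate 1 (adjusted p = 0.123) or WT replicate 2 (0.126), and Ephb4 without those (0.17 and 0.179), WT replicate 4 (0.105), WT replicate 5 (0.113) or WaplΔ/+ replicates 4 and 5 (0.109 and 0.103). Epha4 lost it without any single WT library (0.129 to 0.223) and without WaplΔ/+ replicates 1, 3 or 4 (0.105 to 0.14), and Efna2 without WT replicates 1, 2, 4 or 5 (0.154 to 0.25) or WaplΔ/+ replicates 1, 4 or 5 (0.147 to 0.17).

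In double heterozygous brains 8 members changed against WT, all of them lower, where 3.28% of all genes were called (0.812% higher and 2.46% lower) and 6.02% of those averaging 100 or more. They were 6 semaphorins, Sema3a, Sema3c, Sema3e, Sema5a, Sema6d and Sema7a, and 2 Eph receptors, Epha5 and Epha7. Sema3c ranged over 1129.5 to 1517 (median 1260.5) normalized counts against 1638 to 1811 in WT, with every library below WT, 74.4% of the WT mean and a log2 fold change of -0.41 ± 0.061 (SE, adjusted p = 0.00124). Sema3e ranged over 268 to 328 (median 285), and 1 library, replicate 3, reached into the WT range of 320.1 to 414, for a log2 fold change of -0.34 ± 0.074 (SE, adjusted p = 0.0202). Sema5a ranged over 1033 to 1179.9 (median 1059), with replicate 5 just above the lowest WT library at 1176, and gave -0.22 ± 0.052 (SE, adjusted p = 0.0323). These 3 kept their calls when any single library was left out. Epha5 ranged over 3545 to 4065 (median 3743), every value under the WT range, with a log2 fold change of -0.18 ± 0.043 (SE, adjusted p = 0.0386). Epha7 ranged over 1946 to 2180.4 (median 2078), also under its WT range, with one of -0.16 ± 0.042 (SE, adjusted p = 0.0652). Sema6d ranged over 2826 to 3416 (median 3179), without overlap with WT, for a log2 fold change of -0.17 ± 0.044 (SE, adjusted p = 0.0525). Sema3a ranged over 947 to 1069.7 (median 1019), also apart from WT, for -0.15 ± 0.043 (SE, adjusted p = 0.0898). Sema7a had 2243 ± 151 against 2528 ± 114 (SD), a log2 fold change of -0.16 ± 0.046 (SE, adjusted p = 0.0802). Groups did not overlap for 5 members, all below WT, against 2.76% of all genes.

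Without double heterozygote replicate 5 the count of called members was 21, 10 higher and 11 lower, and without replicate 3 it was 13. It was 4 without double heterozygote replicate 1 or 4 or without WT replicate 4, 3 without WT replicate 1, and 5 without WT replicate 2, 3 or 5. What share of all genes passed in these fits is not given here, so the counts cannot be read as particular to the members. The 3 left without WT replicate 1 were Sema3c, Sema3e and Sema5a, so Sema3a and Sema7a lost their calls there. Epha5 lost its call without WT replicate 1 (adjusted p = 0.129) or double heterozygote replicate 1 (0.101), Sema6d without WT replicates 1, 2, 4 or 5 or double heterozygote replicate 4 (0.106 to 0.131), and Epha7 without WT replicates 1 to 4 or double heterozygote replicates 1, 4 or 6 (0.101 to 0.195). Astrocyte markers moved in these brains too, with 3 of 5 lower and sums of 8997 to 11652 normalized counts, as did 4 of 5 oligodendrocyte lineage markers with sums of 4866 to 5878. Of 5 microglia and macrophage markers 1 fell, Cx3cr1. Of 8 midbrain and hindbrain markers 3 rose, En1, En2 and Hoxb3, and all 8 estimates were above 0. Sums of that list were 1733 to 2519 against 1618 to 1898 in WT. The part of these shifts in the members' changes was not tested.

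The double heterozygotes were then compared with each single heterozygote. Against Nipbl+/- brains 0 members passed with edgeR and 0 with DESeq2, where edgeR called 0.00655% of all genes. An unadjusted edgeR p below 0.05 was found for 8 of the 62 members. It was found for 1259 of all 30552 genes tested, and for 588 of the 14542 averaging 100 or more. Log2 fold changes of the members ranged from -0.27 ± 0.19 (Robo3) to 0.31 ± 0.15 (Sema3d, SE). Unc5c was higher in every double heterozygote than in every Nipbl+/- library, at 1067 to 1288 (median 1158) against 985 to 1021 normalized counts, and its difference of 0.20 ± 0.061 did not pass (adjusted p = 0.971). Plxna1, a plexin that works with neuropilins and named here after its values were seen, was lower in every double heterozygote, at 10597 to 15384 (median 14843), than in every Nipbl+/- library, at 15545 to 15841, and every WaplΔ/+ library, at 15535 to 16469.7. Its lowest value was that of replicate 5 and the other 5 double heterozygotes were at 14654 to 15384, and neither the difference from Nipbl+/- (-0.13 ± 0.087 SE, adjusted p = 0.971) nor that from WaplΔ/+ (-0.15 ± 0.063 SE, adjusted p = 0.421) passed. An adjusted p that misses the threshold with 3 libraries on one side does not show that the levels were equal. Unc5c and Plxna1 were the 2 of 62 members whose groups did not overlap against Nipbl+/-. Against WaplΔ/+ there were also 2, Plxna1 and Sema5a. The shares of all genes without overlap in these comparisons are not given here, so the separations cannot be read as particular to the members. Against WaplΔ/+ brains 2 members were lower, Sema5a and Plxnd1, where 1.02% of all genes were called. Sema5a ranged over 1222 to 1449 (median 1286) in WaplΔ/+, above every double heterozygote, for a difference of -0.26 ± 0.045 (SE, adjusted p = 0.00748) on the log2 scale. Plxnd1 (chr6:115954811-115995339), the receptor of Sema3e, stood at 3544, 3254, 3709.9, 3662 and 3300.2 in WT and at 3271, 3407 and 3092 in Nipbl+/-, and ranged over 3205 to 3997 (median 3749) in WaplΔ/+ and over 2453 to 3345 (median 3199) in double heterozygotes. The latter 2 ranges overlapped, and the difference was -0.27 ± 0.065 (SE, adjusted p = 0.0732). Plxnd1 lost this call without any one of WaplΔ/+ replicates 3 to 7 (0.103 to 0.171) or double heterozygote replicates 1 or 3 (0.175 and 0.109), and the count was 1 without WaplΔ/+ replicate 3, 4 or 6 or double heterozygote replicate 1 or 3, and 4 without WaplΔ/+ replicate 1.

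Whether the change with Nipbl loss differed between the Wapl backgrounds was tested as the interaction of the 2 genotypes over all 21 libraries. With edgeR 0 of the 62 members and 0% of all genes passed, and 33 members and 4221 genes had an unadjusted p below 0.05. DESeq2 called 7 members and 793 genes. The edgeR count was 3 without WaplΔ/+ replicate 2 and 9 without double heterozygote replicate 6. The lowest unadjusted p belonged to Robo2 among the members named here, with an interaction of 0.24 ± 0.071 on the log2 scale (SE, adjusted p = 0.2).

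Set side by side for the 33 members called in Nipbl+/-, the 3 mutant groups gave the following values, bearing in mind that all 3 comparisons use the same 5 WT libraries. The 16 lower members had a median log2 fold change of -0.29 in Nipbl+/-, -0.10 in WaplΔ/+ and -0.15 in double heterozygotes. The 17 higher members had medians of 0.19, 0.12 and 0.10 in the same order. Without double heterozygote replicate 5 the double heterozygous medians were -0.16 for the lower and 0.15 for the higher members, and without WaplΔ/+ replicate 2 the WaplΔ/+ medians were -0.11 and 0.15. The double heterozygous mean lay between the WT and Nipbl+/- means for 27 of the 33, at or beyond WT for Plxna3, Slit1 and Unc5d, and beyond Nipbl+/- for Sema7a, Ephb4 and Unc5b. Plxna3 and Slit1 were placed there by replicate 5 alone: without it their means were 11985 and 4307, between those of WT (11455 and 4165) and Nipbl+/- (12507 and 4533), and 29 of the 33 means lay between, with Unc5d the 1 at or beyond WT and Sema7a, Ephb4 and Unc5b beyond Nipbl+/-. For Sema7a the double heterozygous mean without replicate 5 and the Nipbl+/- mean were nearly equal. Since the members were picked on the same Nipbl+/- and WT values, a group mean between those 2 is partly set by the choice and is a description only. Robo2, for example, ranged over 6335 to 7809 (median 6953) in WaplΔ/+ and 6885 to 7527 (median 7221) in double heterozygotes, around 91% and 94% of the WT mean. Plxna4 ranged over 5264 to 8819 (median 6283) in WaplΔ/+ and 5265 to 8058 (median 6685) in double heterozygotes.

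Of the other members with values given, Unc5c ranged over 942 to 1329 (median 1186) normalized counts in WaplΔ/+ and Slit2 over 1300.4 to 1567 (median 1424) in WaplΔ/+ and 1333 to 1453 (median 1411) in double heterozygotes, and their WaplΔ/+ ranges overlapped WT. In WaplΔ/+, Sema3c ranged over 1353 to 1794 (median 1624), Sema3e over 267 to 356 (median 348), Sema3a over 1004 to 1228 (median 1150.4), Sema6d over 3164 to 3675 (median 3447), Epha5 over 3506 to 4331 (median 4035) and Epha7 over 1936 to 2348 (median 2215). Each of these 6 reached into its WT range in at least 1 WaplΔ/+ library, and none was called there. Plxnb1 ranged over 8296 to 9523 (median 8579) in WaplΔ/+ and 6514 to 9529.5 (median 9299) in double heterozygotes, and Plxnb2 over 9307 to 10818 (median 9682) and 7649 to 10962 (median 9901). Ephb2 ranged over 6908 to 8189 (median 7616) and 6164 to 8098 (median 7759.6), and Robo3 over 418 to 714 (median 531) and 329 to 674 (median 579). The ranges of both groups overlapped the WT range for all 4 receptors, although for Ephb2 no WaplΔ/+ library lay inside it, with 5 above and 2 below. The ligands Sema5b (1502 to 2131 (median 1670.1) and 1253 to 1931 (median 1764)) and Sema3f (2373 to 2783 (median 2479.7) and 1917 to 2816 (median 2612)) overlapped WT in both groups too. In double heterozygotes Unc5b ranged over 743 to 1209 (median 981), Ephb4 over 547 to 892 (median 686) and Efna2 over 931 to 1032 (median 1011), so the 3 members that rose in WaplΔ/+ were not apart from WT there. Epha4, lower in WaplΔ/+, was at 3579, 3977 and 4563 in Nipbl+/- and ranged over 3844 to 4361 (median 4052) in double heterozygotes, and passed in neither.

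Single libraries differed within the groups. The median log2 ratio of the 17 higher members to their WT mean was 0.09 to 0.24 in Nipbl+/- libraries and 0.01 to 0.25 in 5 double heterozygotes, but -0.26 in double heterozygote replicate 5, where 15 of the 17 lay below the WT mean. That library was at 6514 normalized counts of Plxnb1, 7649 of Plxnb2, 6164 of Ephb2 and 1917 of Sema3f, each the lowest of all 21 libraries. Its low values were not confined to the 17 higher members. It was also the lowest of the 21 for the uncalled members Plxna1 (10597) and Sema6a (2532). The same held for L1cam (17375) and Mical3 (4841) outside the members, while for Cfl1 it was the highest (34909). For the 16 lower members replicate 5 stood with its group, at -0.15 within -0.26 to -0.05. In WaplΔ/+ the lower members had medians of -0.27 to -0.02 in 6 libraries and 0.04 in replicate 2. The WT libraries ranged over -0.08 to 0.08 for the lower and over -0.04 to 0.05 for the higher members.

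**Figure D5:**
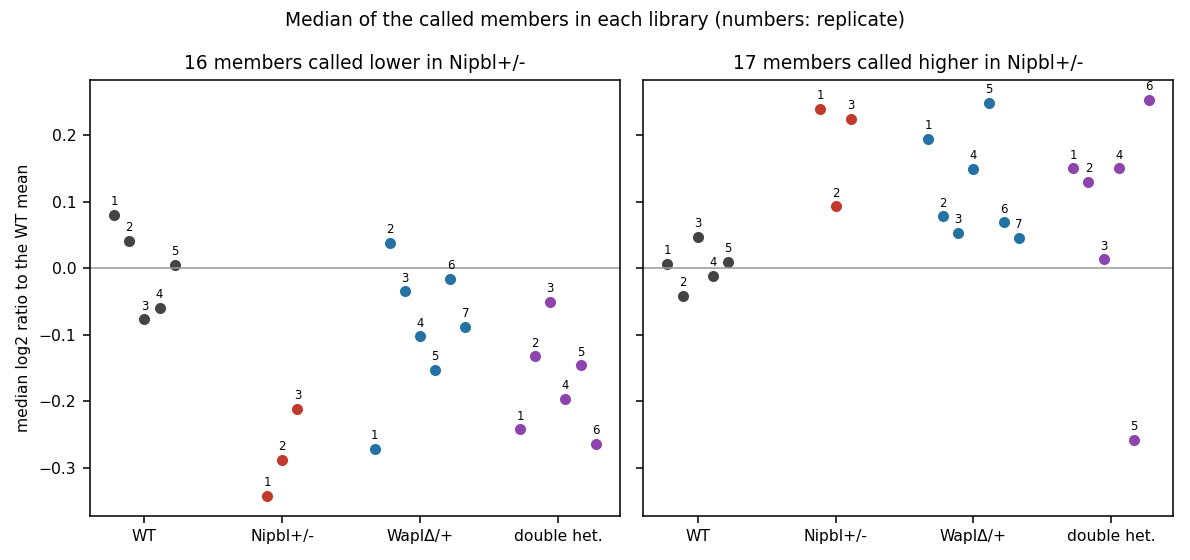
Median log2 ratio to the WT mean (y axis) of the 16 members called lower (left) and the 17 called higher (right) in Nipbl+/- brains, 1 point for each of the 21 libraries, with its replicate number. Double heterozygote replicate 5 lies at -0.26 for the higher members while the other 5 lie between 0.01 and 0.25.

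Other genes of the pathway moved in part. Of 24 netrins, neuropilins and adhesion partners, 9 were called in Nipbl+/- brains, with Draxin, Cntn2 and Flrt1 higher and Chl1, Flrt2, Neo1, Nrcam, Nrp1 and Ntng1 lower. Chl1, a cell adhesion molecule of the L1 family, had a log2 fold change of -0.47 ± 0.068 (SE, adjusted p = 0.000406), Draxin, a midline repellent, one of 0.24 ± 0.039 (SE, adjusted p = 0.000914), and Nrp1, the co-receptor of Sema3a, one of -0.21 ± 0.067 (SE, adjusted p = 0.0729). For Nrp1, Nipbl+/- replicate 3 at 2931 normalized counts lay inside the WT range of 2868 to 3273. The netrin receptor Dcc (0.09 ± 0.057 SE, adjusted p = 0.425) and Nrp2 (0.02 ± 0.035 SE, adjusted p = 0.858) were not called. In WaplΔ/+ brains Ntn1, the netrin that Unc5 receptors bind, rose by 0.23 ± 0.044 (SE, adjusted p = 0.0381), Gpc1 rose and Chl1 fell, and in double heterozygotes Neo1 alone was called, lower by 0.16 ± 0.042 (SE, adjusted p = 0.0587). Of 40 effectors inside the growth cone, 12 were called in Nipbl+/- brains, with Abl1 and Dpysl4 higher and 10 lower. These calls were 37.5% of the partners and 30% of the effectors. Over all genes 11.2% were called, and 20.5% of those averaging 100 or more normalized counts. Mical2, an actin oxidizing enzyme of the MICAL family, fell by 0.53 ± 0.11 (SE, adjusted p = 0.00714), and Srgap2, a Rac inhibitor under Robo, fell by 0.25 ± 0.044 (SE, adjusted p = 0.00143), both on the log2 scale. For Mical2, Nipbl+/- replicate 2 at 1577 normalized counts lay inside the WT range of 1539 to 1892. In WaplΔ/+ brains 6 effectors fell (Abl2, Arhgef12, Srgap1, Srgap2, Srgap3 and Trio), and 4 fell in double heterozygotes (Farp1, Mical2, Ngef and Srgap2). Called shares of partners and effectors were 12.5% and 15% in WaplΔ/+, beside 2.22% of all genes and 3.82% of those averaging 100 or more. In double heterozygotes they were 4.17% and 10%, beside 3.28% and 6.02%. The median log2 fold change in Nipbl+/- was 0.01 over the 24 partners and -0.04 over the 40 effectors, beside -0.03 over the 62 members.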

How the data were processed

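RNA was measured in 21 whole brains of female E17.5 mouse embryos (5 WT, 3 Nipbl+/-, 7 WaplΔ/+ and 6 double heterozygotes), grouped by the sample labels. The deposited values are raw counts of paired-end reads per gene. Per the submitters' processing notes the authors used cutadapt 2.4, STAR 2.5.3a, featureCounts (Subread 1.6.4) and the builds mm10 and GRCm38.p6. The annotation, the strand setting and the handling of reads shared by genes are not given in the sources used here, so reads on overlapping or antisense genes cannot be told apart, and 31 of the 62 members overlap another annotated gene. Library totals were 25682566 to 35818767 counts (median 31830396), and members with few counts, such as Epha1 with 46 to 59 raw counts in the WT libraries, carry counting error beside the spread between embryos.

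The quasi-likelihood test of edgeR 4.0.16 (R 4.3.3, TMM scaling) was run on the 30552 genes whose normalized counts summed to 10 or more over the 21 libraries. A comparison of a pair of groups used only their libraries, and the interaction used all 21. Genes with a Benjamini-Hochberg adjusted p below 0.10 over all genes tested were called, and standard errors follow from the quasi-likelihood F statistic. The test was checked on simulated data for power, sign and size of the estimate. Changes planted there were larger than those of nearly all called members, and no limit was set on false calls. It therefore does not bear on calls of small changes. DESeq2 1.42.0, its size factors, other filters, a threshold of 0.05, the replicate number as a block, one fit of 4 groups, subsets of libraries and leaving out each library were alternatives. Spans came from a RefSeq table for GRCm38.p6 that matched 24076 genes by symbol and 262 by synonym.

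The members, the lists of partners, effectors and markers and the tests were chosen with earlier results of these data known. Values per library are given for up to 6 higher and 6 lower called members of each comparison with WT by adjusted p, up to 3 of each other comparison, and the member of each family with the lowest adjusted p in Nipbl+/-. A further part of that rule, the highest level per transcript length in each family, could not be applied without transcript lengths. Other members named were chosen after their values were seen. The deposited samples' replicate numbers did not pair them: libraries of the same number in different groups had correlations of deviations from -0.272 to 0.437 over 25 pairs, against -0.436 to 0.454 for other numbers. No pair of libraries of a group agreed within sampling noise (lowest chi-square per degree of freedom 2.85). The result of 1 marker list is not reported here.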

Additional observations from a re-analysis of the deposited data

Results flagged for a closer look

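Among the 22 members given with values per library, the highest and lowest library of each group of 5, 6 or 7 was compared with its neighbours by Dixon's criterion, and 2 of 66 sets of a gene and a group stood out, where chance gives about 1 in 20. Plxna4 in WaplΔ/+ replicate 2 was at 8819 normalized counts, the other 6 libraries of the group at 5264 to 6741, and no cause was tested. Efna2 in double heterozygote replicate 3 was at 931 normalized counts, the other 5 at 994.6 to 1032, and the cause was not tested.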

How the results depend on the processing

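The number of called members among the 62 was recomputed under each alternative. Shares of all genes called under the alternatives are not given, here or in the paragraphs above. A changed count therefore cannot be read as particular to the members. For Nipbl+/- against WT the count of 33 was 33 with DESeq2, its size factors and the other filters, 25 at 0.05, 23 with low mt-Nd3 libraries and 14 in one fit of 4 groups, and 23 to 33 with single libraries left out. For WaplΔ/+ against WT the count of 4 became 12 with DESeq2, 9 with no filter, 1 at 0.05, 0 in one fit of 4 groups, 0 with low and 2 with high mt-Nd3 libraries, 2 with the mt-Nd3 set as a term, 12 with only labels that write the deletion second, and 0 to 16 with libraries left out. For double heterozygotes against WT the count of 8 became 4 at 0.05, 5 in one fit, 0 with high mt-Nd3 libraries, 16 with only labels that write the deletion first, and 3 to 21 with libraries left out. Against Nipbl+/- it was 0 under every alternative run. Against WaplΔ/+ the count of 2 became 7 with DESeq2, 1 at 0.05, 9 in one fit, 0 with low and 0 with high mt-Nd3 libraries, 1 with the mt-Nd3 set as a term, and 1 to 4 with libraries left out. The interaction count of 0 became 7 with DESeq2 and 0 to 9 with libraries left out. The causes were not tested.

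With the replicate number as a block, which the labels do not tie to a litter or batch, the counts were 22 for Nipbl+/-, 18 for WaplΔ/+, 5 for double heterozygotes, 0 and 3 for double heterozygotes against Nipbl+/- and WaplΔ/+, and 0 for the interaction. No direction of a named gene reversed under any alternative run in the comparison for which it was named. Directions in other comparisons were not all kept. Plxnb1, for example, had a mean of 8743 normalized counts in double heterozygotes and 8320 in WT over all libraries. In the high mt-Nd3 set it was at 6514 and 9428 in double heterozygotes and at 8370 and 8167 in WT, lower on average. The subsets of high mt-Nd3 libraries, and the medians and group means without double heterozygote replicate 5 or WaplΔ/+ replicate 2, were chosen after seeing the data. No fit with a term for the mt-Nd3 set is given for comparisons with Nipbl+/- or for the interaction. Nipbl+/- has libraries of the low set only, so such a term would be estimated from the other groups alone.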
